A study of Sus scrofa with 6 samples.

Results

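*ELOVL3*, *ELOVL6* and *PNPLA3* are 3 genes of fatty acid and triglyceride metabolism that were followed in the ear tissue of 6 Sutai piglets, out of 22204 transcripts with a read in any piglet. They were taken by name from the list of differentially expressed genes of the study, which rests on fold changes and q-values between the same piglets. For this reason their differences between genotypes are given as a description, with no test. Each name stands for 1 transcript, and all 3 transcripts had reads in all 6 libraries and passed the expression filter. Polyadenylated RNA was sequenced in 3 QQ piglets (6185STQ, 6415 and 6434) and 3 qq piglets (6161ST, 6165ST and 6407), with 1 library per piglet. QQ stands for CNV/CNV piglets with large ears, which carry on both chromosomes a duplication over the end of the *MSRB3* gene, and qq for wild-type piglets with small ears, which lack it. All were Sutai pigs, a Chinese synthetic line from Duroc and Taihu pigs, aged 2 days by the article, where the labels say new born. No source used here gives sex or litter. The depth assigned to transcripts ran from 39.3 M reads in 6185STQ to 44.2 M reads in 6407. An ear sample holds skin, hair follicles, glands, fat and cartilage, so that fewer cells of a type and less RNA per cell cannot be told apart.

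The elongases of the ELOVL family carry out the first step of each cycle that lengthens a fatty acid by a pair of carbons, in the membrane of the endoplasmic reticulum. ELOVL6 mainly acts on palmitic acid and other saturated and monounsaturated acids of similar length. ELOVL3 makes longer saturated and monounsaturated acids and is known from the sebaceous glands of the skin, whose secretion, the sebum, coats hair and skin, and from brown fat. PNPLA3, or adiponutrin, is a protein of lipid droplets with a patatin-like lipase domain that acts on triglycerides and retinyl esters, and its gene, like that of ELOVL6, is a target of the lipogenic factor SREBP-1c. None of the usual markers of sebocytes, such as *SCD*, *FASN* or *AWAT2*, could be matched by name to a transcript here. The link of the 3 genes to sebaceous glands was therefore not checked, and they are called lipid genes.

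*ELOVL3*, the elongase gene of the skin glands (ENSSSCT00000011570, chromosome 14 of Sscrofa11.1 from 113226582 to 113230208), had 7.64 RPKM in 6161ST, 17.8 in 6165ST and 7.16 in 6407 among the wild-type piglets. In CNV/CNV piglets it had 3.40 RPKM in 6185STQ, 4.91 in 6415 and 3.61 in 6434. RPKM is the number of reads scaled to the length of the transcript and to the size of the library. The piglet 6165ST stood above the other 5, while 6161ST and 6407 were alike, with 95% counting intervals of 6.92 to 8.40 and 6.50 to 7.88 RPKM. All wild-type piglets lay above all CNV/CNV piglets. Wild-type piglets averaged 10.9 ± 6.01 RPKM (SD, n = 3) and CNV/CNV piglets 3.97 ± 0.816 RPKM (SD, n = 3). On the log2 scale the fold change of CNV/CNV over wild-type was -1.31 (standard error 0.36), and -0.79 without 6165ST. In CNV/CNV piglets, 6415 was above 6434 and 6185STQ beyond counting error, and the intervals of the latter pair overlapped. Counting intervals are exact Poisson limits on the reads and cover counting error only.

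*ELOVL6*, the elongase gene of palmitic acid (ENSSSCT00000024189), had the highest RPKM of the 3 in every piglet. Its wild-type values were 82.1 RPKM in 6161ST, 65.9 in 6165ST and 20.9 in 6407, and its CNV/CNV values were 14.6 RPKM in 6185STQ, 23.7 in 6415 and 19.2 in 6434. In *ELOVL6*, 6161ST and 6165ST stood apart from the other 4 piglets and from each other (77.7 to 86.7 and 62.0 to 70.1 RPKM), and the groups overlapped, since 6407 lay below 6415. The counting intervals of 6415 (21.4 to 26.1 RPKM), 6407 (18.8 to 23.2 RPKM) and 6434 (17.1 to 21.4 RPKM) overlapped from each to the next, so that these neighbours could not be ordered. 6185STQ was lowest, at 12.8 to 16.7 RPKM. Wild-type piglets averaged 56.3 ± 31.7 RPKM (SD, n = 3) and CNV/CNV piglets 19.2 ± 4.52 RPKM (SD, n = 3), which gave -1.41 (standard error 0.43) as log2 fold change. Without 6161ST and 6165ST the log2 fold change was -0.073 (standard error 0.35), from 1 wild-type piglet, which is assumed to vary like the CNV/CNV piglets. The mean of 6161ST and 6165ST was 3.54-fold of the level in 6407, which was 1.09-fold of the CNV/CNV mean.

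*PNPLA3*, the gene of the lipid droplet lipase (ENSSSCT00000026951, chromosome 5 of Sscrofa11.1 from 5075434 to 5092631), was the lowest of the 3. It had 2.54 RPKM in 6161ST, 3.36 in 6165ST and 1.61 in 6407 among wild-type piglets, from 126, 164 and 86 reads. In CNV/CNV piglets it had 0.780 RPKM in 6185STQ, 0.835 in 6415 and 0.778 in 6434, from 37, 44 and 40 reads. All wild-type piglets lay above all CNV/CNV piglets, and the lowest wild-type value was 1.93-fold of the highest CNV/CNV value. The counting interval of 6407 (1.29 to 1.99 RPKM) did not reach that of 6415 (0.607 to 1.12 RPKM). The intervals of 6161ST and 6165ST overlapped (2.12 to 3.03 and 2.87 to 3.92 RPKM), as did those of all CNV/CNV piglets. Wild-type piglets averaged 2.51 ± 0.875 RPKM (SD, n = 3) and CNV/CNV piglets 0.798 ± 0.0322 RPKM (SD, n = 3), and -1.51 was the log2 fold change (standard error 0.30). The coefficient of variation over CNV/CNV piglets was 4.04%, below the counting error of 16.4% that 37 reads carry.

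**Figure D1:**
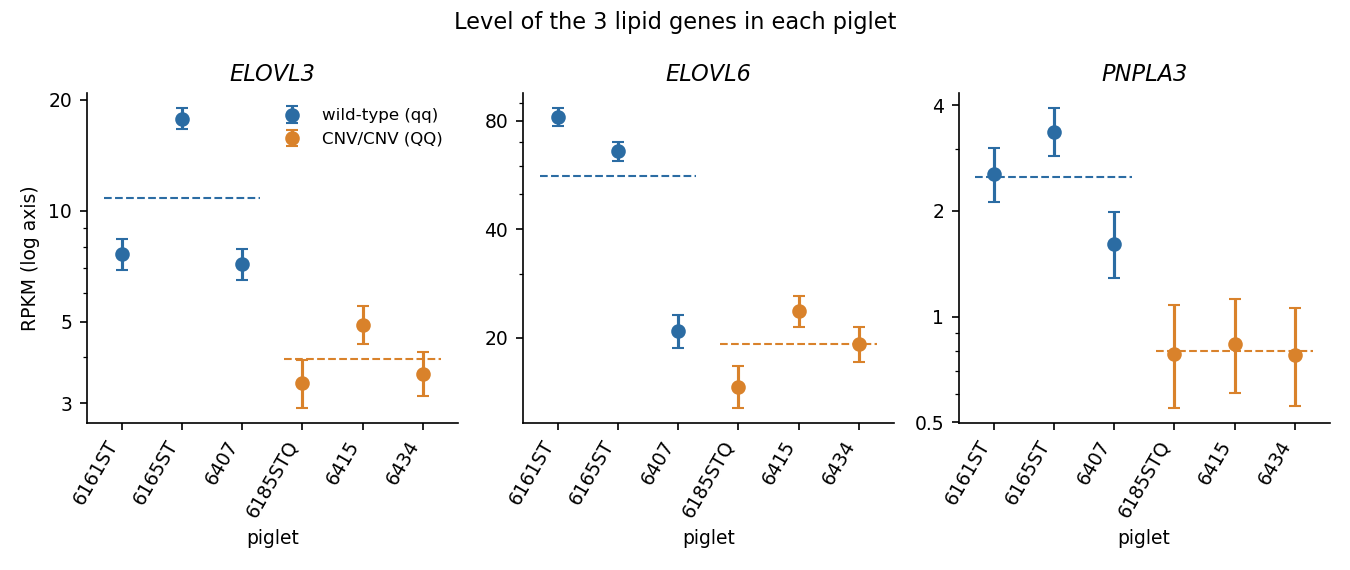
RPKM of ELOVL3, ELOVL6 and PNPLA3 by piglet (log axis), wild-type in blue and CNV/CNV in orange, with bars for the 95% counting interval and dashed lines for the group means (n = 3). The wild-type piglet 6407 has the lowest wild-type level of all 3 genes, above the CNV/CNV piglets for ELOVL3 and PNPLA3 and among the CNV/CNV piglets for ELOVL6 (20.9 RPKM).

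The groups did not overlap, with wild-type above CNV/CNV piglets, for 2 of the 3 lipid genes, *ELOVL3* and *PNPLA3*, where 12.1% of the 16645 transcripts tested showed this. All 3 were more than 2-fold lower in CNV/CNV piglets, as were 1.45% of all transcripts, and their median log2 fold change was -1.41 against -0.0012 over all transcripts. Since the genes were chosen on this contrast, these shares say nothing about them beyond their choice. In all 3 the highest pair was 6161ST and 6165ST, an order that 23.9% of the transcripts had. The order of the groups together with that of the pair, as in the RPKM of *ELOVL3* and *PNPLA3*, was found in 7.08%.

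The wild-type piglets differed more among themselves than the CNV/CNV piglets in all 3 genes. For *ELOVL3* the coefficient of variation was 55.3% in wild-type and 20.5% in CNV/CNV piglets. The wild-type values of *ELOVL6* spanned 3.93-fold and those of CNV/CNV piglets 1.62-fold. For *PNPLA3* the spans were 2.08-fold and 1.07-fold. The biological coefficient of variation, which edgeR estimates for each transcript beyond the counting error, was 0.324 for *ELOVL3*, 0.376 for *ELOVL6* and 0.274 for *PNPLA3*. The trend at their levels was 0.261, 0.241 and 0.320, so that the elongases varied more, and the lipase less, than transcripts of like abundance.

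Between the piglets whose names hold the letters ST, the log2 level in CNV/CNV minus that in wild-type piglets was -1.61 for *ELOVL3*, -2.17 for *ELOVL6* and -1.70 for *PNPLA3*, with 1 CNV/CNV and 2 wild-type piglets. The remaining 3 piglets, 1 of them wild-type, gave -0.70, 0.089 and -0.91 for these genes in turn. Thus *ELOVL6* was lower in CNV/CNV piglets on the ST side. For *ELOVL3* and *PNPLA3* the groups did not overlap, so lower levels in CNV/CNV piglets on both sides of this split were fixed beforehand. The meaning of the letters is not given in the sources used here, and their part in the result was not tested. With a term for the letters in the fit over all 6 piglets, the log2 fold changes were -1.21 (standard error 0.41) for *ELOVL3*, -1.04 (0.51) for *ELOVL6* and -1.34 (0.31) for *PNPLA3*.

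**Figure D2:**
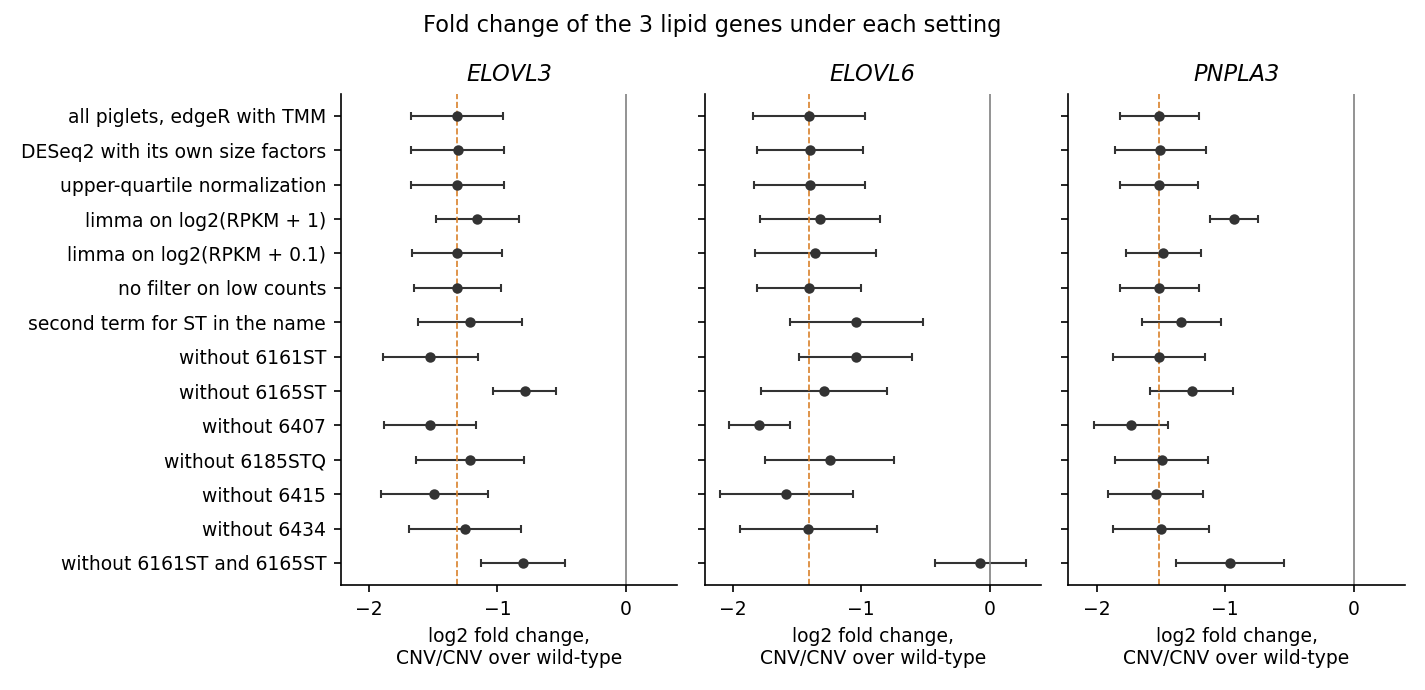
Log2 fold change (CNV/CNV over wild-type) of the 3 lipid genes under each setting, with bars of 1 standard error, a grey line at 0 and a dashed line at the value with all piglets in edgeR. Without 6161ST and 6165ST the value of ELOVL6 is -0.073, while that of ELOVL3 is -0.80 and that of PNPLA3 is -0.96.

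The ratio between the elongases showed how far they moved apart from piglet to piglet. *ELOVL6* over *ELOVL3* in RPKM was 10.7 in 6161ST, 3.70 in 6165ST and 2.92 in 6407. In CNV/CNV piglets it was 4.30 in 6185STQ, 4.83 in 6415 and 5.31 in 6434. The CNV/CNV piglets lay within the range of the wild-type piglets, with means of 4.81 ± 0.506 (SD, n = 3) and 5.79 ± 4.31 (SD, n = 3), and 6161ST stood alone. *PNPLA3* over *ELOVL3* varied less, from 0.170 in 6415 to 0.229 in 6185STQ over the 5 piglets other than 6161ST, which had 0.333. In 6161ST *ELOVL3* was thus low against both other genes. The level of *ELOVL6* per length rests on a transcript model of 388 bases, shorter than all but 4.51% of the transcripts, and the study's list gives it no place on Sscrofa11.1. Its mRNA is known to be much longer in other mammals, so its RPKM holds for this stretch. In reads without regard to length, the mean ratio to *ELOVL3* (1340 bases) was 1.39 in CNV/CNV and 1.68 in wild-type piglets. The wild-type ratios in reads were 3.11 in 6161ST, 1.07 in 6165ST and 0.844 in 6407, where *ELOVL3* had the more reads.

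The share of the *ELOVL6* model with at least 1 read never fell as the number of reads rose, except in 6161ST, which had the most reads. It was 90.5% in 6161ST with 1307 reads and 96.4% in 6165ST with 1034 reads, but 95.6% in 6415 with 401 reads. It was 88.9% in 6407 with 358 and in 6434 with 317 reads, and 87.9% in 6185STQ with 223 reads. In bases, 14 and 17 of 388 had no read in 6165ST and 6415, and from 37 to 47 in the other 4 piglets. Both groups of genotype had 1 piglet with the higher share, so that it did not part them. Among 113 transcripts of 300 to 500 bases with 200 to 1500 reads in each piglet, limits that were set after the values were seen, the median spread between piglets was 2.54 percentage points. A spread as large as that of *ELOVL6*, 8.50 points, was found in 18.6% of them. For *ELOVL3* the covered share ran from 95.9% to 99.5%, lowest in 6185STQ, and for *PNPLA3* from 76.3% to 85.3%, with the lowest value in the piglet with the fewest reads.

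**Figure D3:**
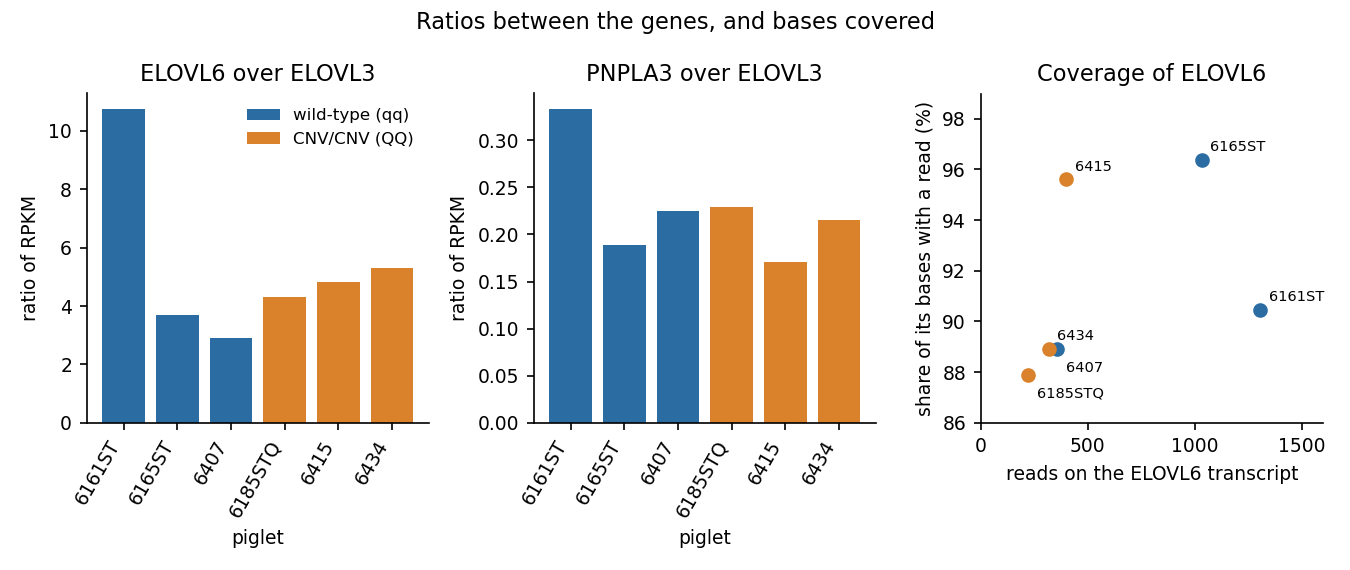
Ratio of RPKM of ELOVL6 to ELOVL3 and of PNPLA3 to ELOVL3 in each piglet, and share of the 388 bases of the ELOVL6 transcript with a read against its number of reads, with wild-type piglets in blue and CNV/CNV piglets in orange. The ratio of the elongases is 10.7 in 6161ST and between 2.92 and 5.31 in the others, and 6415 has a covered share of 95.6% with 401 reads.

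Over the 6 piglets, the log2 levels of *ELOVL3* and *PNPLA3* had a Pearson r of 0.92 and a Spearman rho of 0.94. Those of *ELOVL6* and *PNPLA3* had 0.87 and 0.89, and those of the elongases 0.75 and 0.71. All 3 genes were chosen for a fall in the same piglets, which raises these values, so they are a description over 6 libraries. After each genotype's mean was taken off, r was 0.79 for *ELOVL3* with *PNPLA3*, 0.81 for *ELOVL6* with *PNPLA3* and 0.42 for the elongases. Without 6161ST and 6165ST, the piglets farthest from the median of *ELOVL6* and *PNPLA3*, r fell to 0.24 for *ELOVL6* with *PNPLA3* and was 0.91 for *PNPLA3* with *ELOVL3*. The relation of *ELOVL6* to *PNPLA3* thus rested on those piglets.

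The named transcripts most like each lipid gene were sought among 238 transcripts of the study's list by Pearson r over the 6 piglets of log2 CPM, the log of the counts after scaling by library size. As these transcripts were chosen for a difference between the same piglets, the choice itself raises r, and the values only rank the genes. For *ELOVL3* they were *NHP2L1*, a spliceosome gene (r = 0.99), *TRPM1*, a channel gene of pigment cells (0.99), and *TCHHL1*, a trichohyalin-like gene of the hair follicle (0.97). *TCHHL1* had 10.7 RPKM in 6161ST, 22.0 in 6165ST and from 5.41 to 6.43 RPKM in CNV/CNV piglets, highest in 6165ST like *ELOVL3*. *NHP2L1* was also highest in 6165ST, with a smaller span, from 2.16 RPKM in 6434 to 3.54 RPKM in 6165ST. For *ELOVL6* they were *MLANA*, a gene of pigment cells (0.96), *SLC5A8*, a transporter gene of epithelia (0.96), and *ALDH1A1*, a gene of retinoic acid synthesis (0.96). *ALDH1A1* had 59.1 RPKM in 6161ST and 54.3 in 6165ST but 11.9 in 6407, next to 13.9 to 14.1 RPKM in CNV/CNV piglets. That is the split of *ELOVL6*, with 6407 on the side of the CNV/CNV piglets. For *PNPLA3* they were the ferroxidase gene *HEPHL1* (0.98), the hair keratin gene *KRT81* (0.97) and *FABP7*, a fatty acid binding protein gene (0.96). *FABP7* had 6.55, 5.98 and 2.85 RPKM in wild-type and 0.856, 1.54 and 1.02 RPKM in CNV/CNV piglets, so that the groups did not overlap.

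Genes that went the opposite way were *CCL23*, a chemokine gene (r = -0.95), and *FZD9*, a Wnt receptor gene (-0.91), for *ELOVL3*. For *ELOVL6* they were *FAM109B*, an endosomal protein gene (-0.95), and *CPAMD8* (-0.94). *FAM109B* was at 0 RPKM in 6161ST and 6165ST and from 2.12 to 4.64 RPKM in the other 4 piglets. Its r thus depends on values at the floor. *CPAMD8* had 0.487 and 0.499 RPKM in 6161ST and 6165ST and from 1.80 to 2.58 RPKM in the other 4 piglets. For *PNPLA3* it was *HAPLN3*, a link protein gene of the matrix (-0.95). *HAPLN3* had 4.81 RPKM in 6165ST, where *PNPLA3* was highest, and up to 59.8 RPKM, in 6434, in CNV/CNV piglets.

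**Figure D4:**
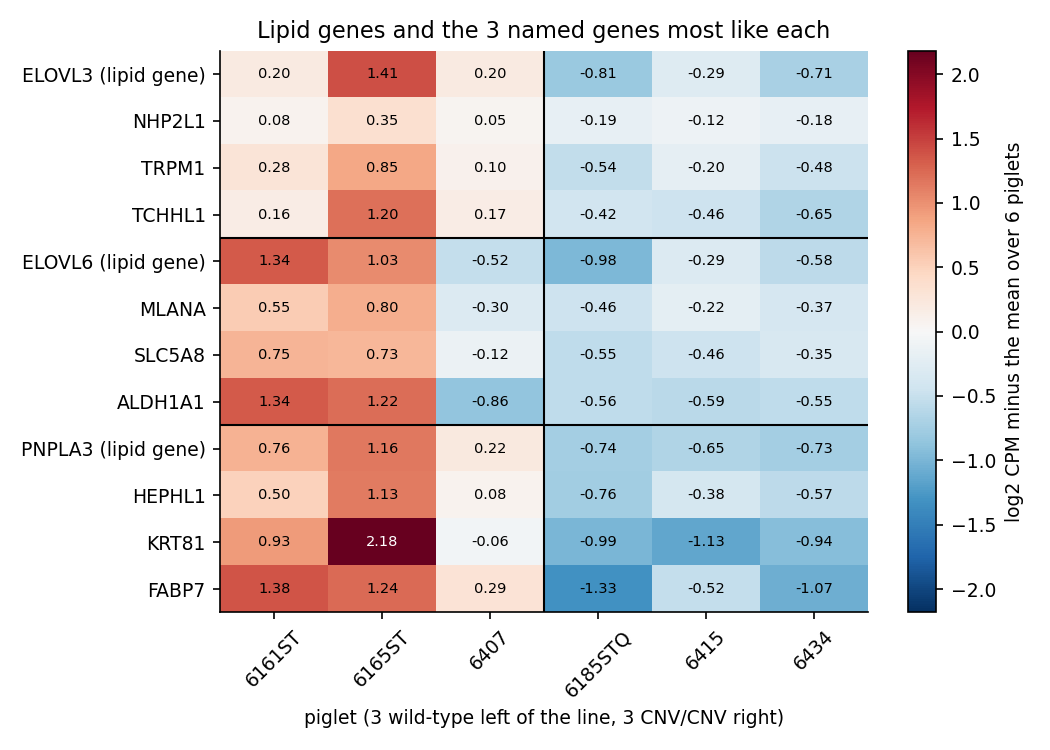
Log2 CPM, as the difference from the mean of the gene over 6 piglets, for each lipid gene and the 3 named transcripts most like it, with wild-type piglets left and CNV/CNV piglets right of the vertical line. The block of ELOVL3 is highest in 6165ST (1.41), whereas ELOVL6 is high in 6161ST (1.34) and 6165ST (1.03) and below its mean in 6407 (-0.52).

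Other genes of lipid metabolism could be named only where the study's list names them, so they too were chosen on this contrast. Of 10 names of lipid synthesis and handling, 7 transcripts were tested, and all 7 had lower means in CNV/CNV piglets. Their median log2 fold change was -1.34. In edgeR 0 of the 7 passed an adjusted p of 0.05, beside 0.00601% of all transcripts in either direction and 0% lower in CNV/CNV piglets. An unadjusted p under 0.05 in edgeR was found for 4, all lower, beside 5.35% in either direction and 2.87% lower. In DESeq2 2 of the 7 passed, beside 0.174% of all transcripts in either direction and 0.12% lower in CNV/CNV piglets: *FABP7* (log2 fold change -2.02, adjusted p = 0.000463) and *CES3*, a carboxylesterase gene (-0.93, adjusted p = 0.0302), the latter named after its value was seen. *CES3* had from 3.09 to 3.84 RPKM in wild-type and from 1.59 to 1.89 RPKM in CNV/CNV piglets, with its highest value in 6407, unlike the lipid genes.

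*ACSM3*, which encodes an acyl-CoA synthetase of medium-chain acids, had 5.84 and 6.22 RPKM in 6161ST and 6165ST and from 2.15 to 2.45 RPKM in the other 4 piglets, the split of *ELOVL6*. *FABP3*, the gene of the fatty acid binding protein of muscle and heart, had a pair of transcripts at -0.99 and -1.39 (log2 fold change, standard errors 0.58 and 0.60), and *H-FABP*, another name of this protein, one with -1.34 (standard error 0.65). These 3 transcripts were highest in 6165ST and lowest in the CNV/CNV piglet 6434. As they may share reads, they are not independent. *GLYATL2*, which encodes an acyltransferase that joins fatty acids to glycine, had 77.4 RPKM in 6161ST, 29.6 in 6165ST and 1.68 in 6407, and among CNV/CNV piglets 25.9 RPKM in 6434 but 3.02 in 6185STQ and 3.40 in 6415. Its log2 fold change of -1.58 had a standard error of 1.19. It was 2.74, on the other side, without 6161ST and 6165ST. *HSD3B*, a steroid synthesis gene, did not pass the expression filter, with reads in 6434 alone (0.0289 RPKM). The transcripts that the study's list gives for *SPOT14*, *AGPAT1* and *ABCA6* were not listed in any library, and so counted as without reads. *SPOT14* was also among the names linked to fat tissue.

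All 5 genes of fatty acid oxygenation were lower in the mean, with a median log2 fold change of -1.47, and were chosen on this contrast like the former list. In edgeR 0 of the 5 passed, beside 0.00601% of all transcripts, and in DESeq2 0, beside 0.174%. An unadjusted p under 0.05 in edgeR was found for 3, all lower in CNV/CNV piglets, beside 5.35% in either direction and 2.87% lower. *ALOX15B*, a lipoxygenase gene of skin and its glands, had 6.04, 4.95 and 2.47 RPKM in wild-type and at most 2.37 RPKM, in 6434, in CNV/CNV piglets (log2 fold change -1.05, standard error 0.33), and -0.28 without 6161ST and 6165ST. Of the cytochrome P450 genes, *CYP4X1* and *CYP4F2* were at 67.3 and 3.58 RPKM in 6161ST and at 7.38 and 0.175 RPKM in 6407, whereas *CYP2J2* and *CYP2J34* were higher in 6407 (15.7 and 7.13 RPKM) than in 6161ST (6.58 and 3.41 RPKM). For *CYP4X1* and *CYP4F2* the log2 fold changes of -1.47 and -2.69 turned to 0.89 and 0.93 without 6161ST and 6165ST, and for *CYP2J2* and *CYP2J34* they went from -1.64 and -1.22 to -1.87 and -1.34.

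All 3 genes of retinoid handling were lower in the mean, with a median log2 fold change of -1.03. They too were chosen on this contrast. With all piglets 0 of the 3 passed in edgeR, beside 0.00601% of all transcripts, and 0 in DESeq2, beside 0.174%. All 3 had an unadjusted p under 0.05 in edgeR, lower in CNV/CNV piglets, beside 5.35% in either direction and 2.87% lower. The log2 fold change of *ALDH1A1* was -1.42 (standard error 0.48) with all piglets. It was -1.86 without 6407, the wild-type piglet at the CNV/CNV level, and 0.29 without 6161ST and 6165ST. *RBP4* and *RBP5*, genes of retinol binding proteins, had -0.97 (standard error 0.38) and -1.03 (0.38) on the same scale. Of the genes linked to fat tissue, *TUSC5*, which acts in glucose uptake of fat cells, had from 4.62 to 6.58 RPKM in wild-type and from 1.45 to 4.42 RPKM in CNV/CNV piglets. *ADIRF*, an adipogenesis factor gene, had 186 RPKM in 6165ST, 22.8 in 6161ST and 29.8 in the CNV/CNV piglet 6185STQ, and was listed at 0.330 RPKM in 6407 and without reads in 6415 and 6434. Of these 2 genes, chosen in the same way, 0 passed in edgeR, beside 0.00601% of all transcripts, and 0 in DESeq2, beside 0.174%, and 0 had an unadjusted p under 0.05 in edgeR, beside 5.35%.

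Marker lists of other cell types, taken from the study's list as well, differed between the same piglets. The summed level of 18 hair shaft transcripts ran from 1663 to 5853 RPKM in wild-type and from 1143 to 1670 RPKM in CNV/CNV piglets, highest in 6165ST. Of the 18, 16 had lower and 2 higher means in CNV/CNV piglets. The most abundant, *KRT31* and *KRT33B*, had -1.19 (standard error 0.43) and -1.07 (0.44) as log2 fold changes. The 2 with higher means, named after their values were seen, were the hair keratin genes *KRT84* (3.39, standard error 1.22) and *KRT83* (2.31, standard error 1.39), both highest in 6185STQ, at 84.8 and 11.8 RPKM. The sum of 9 transcripts of skin glands and simple epithelium, led by *GABRP* and *KRT13*, was 332 and 337 RPKM in 6161ST and 6165ST, 192 in 6407 and from 123 to 141 RPKM in CNV/CNV piglets. That of 8 melanocyte transcripts, led by *TYRP1* and *DCT*, ran from 160 to 294 RPKM in wild-type and from 88.2 to 160 RPKM in CNV/CNV piglets. Cartilage went the other way, as the 12 transcripts led by *COL2A1* and *CYTL1* summed to 88.6 RPKM in 6161ST and 17.4 in 6165ST, but to 742 in 6407 and from 537 to 1107 RPKM in CNV/CNV piglets. In none of these 4 lists was a tested transcript at 0 in a piglet. Some cartilage transcripts were near it in 6165ST, down to 2 reads, with 4 reads for *CYTL1*. The muscle gene *MYH7* ran from 0.996 to 2.27 RPKM in wild-type and from 0.544 to 1.08 RPKM in CNV/CNV piglets, and *ALAS2*, of red blood cells, from 0.175 to 0.628 and from 0.549 to 1.15 RPKM. The piglets with the highest *ELOVL6* and *PNPLA3* levels, 6161ST and 6165ST, thus were those with the least cartilage RNA. *ELOVL3* was highest in 6165ST but alike in 6161ST and 6407 (7.64 and 7.16 RPKM), whose cartilage sums were 88.6 and 742 RPKM. The part of the tissue make-up in the levels of *ELOVL3*, *ELOVL6* and *PNPLA3* was not tested.

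**Figure D5:**
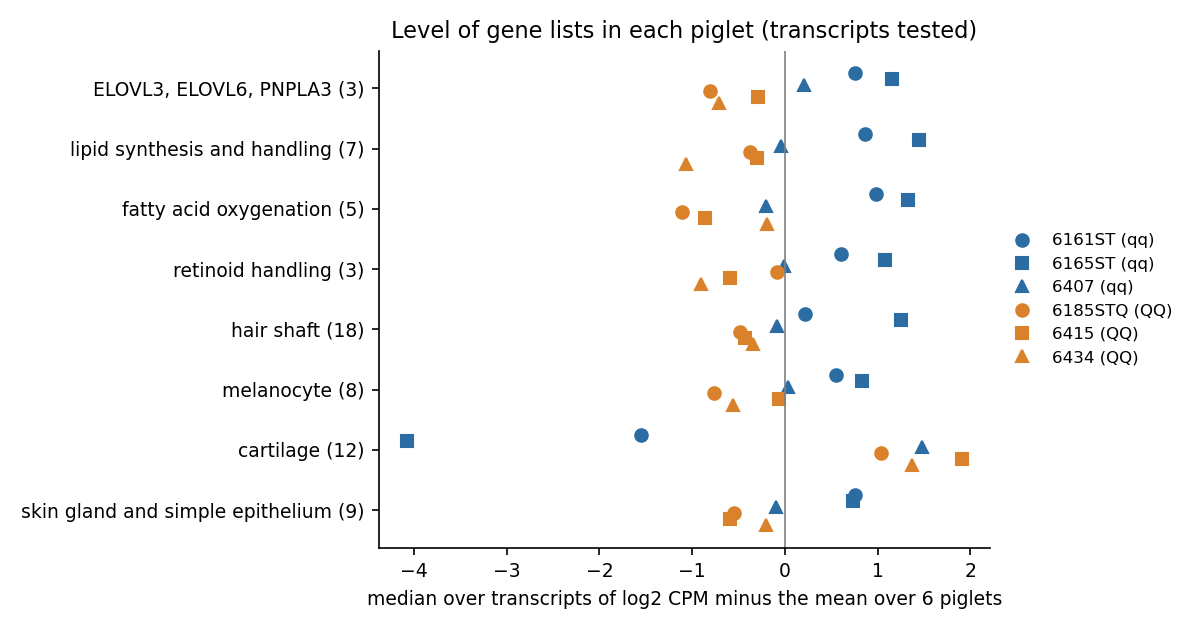
Median over the transcripts of each list of log2 CPM after subtracting each transcript's mean, with the number of transcripts tested in parentheses, wild-type piglets in blue and CNV/CNV piglets in orange. The lipid genes lie at 0.76, 1.16 and 0.20 in 6161ST, 6165ST and 6407 and between -0.81 and -0.29 in CNV/CNV piglets, and cartilage lies at -1.55 and -4.08 in 6161ST and 6165ST.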

How the data were processed

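The authors aligned paired-end reads and deposited, for each library, the count of uniquely mapped reads per Ensembl transcript, the RPKM made from it and the percent of the transcript's length with a read. Of the deposited RPKM values, 100% were recovered from count, length and library total, at a relative tolerance of 0.001. A transcript that is not listed was set to 0. The article names TopHat and Sscrofa11.1, and the submitters' processing notes Bowtie2, TopHat, Cuffdiff and Sscrofa10.2. The counting program is not given in the sources used here, and strand is not stated.

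The 16645 transcripts that passed filterByExpr were compared between genotypes in R 4.3.3 with edgeR 4.0.16 (TMM, quasi-likelihood test, Benjamini-Hochberg adjustment over all), and standard errors were derived from its F values. Counting intervals were exact Poisson limits at 95%. Log2 CPM used a prior count of 2. Alternatives used DESeq2 1.42.0, limma 3.58.1 on log2 RPKM and edgeR with other settings or piglets. The edgeR step was tested on simulated data. No source says more of how the 3 piglets of a group relate. The p-values reflect only counting error and the spread between these piglets, which the fits moderate over all transcripts.

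Names came from the study's list, which pairs 280 transcripts with names, 264 of them in the tables, since the reference gene tables matched 0 identifiers. Its fold changes were not used. The members and lists were chosen with earlier results of these data known. Genes named were the 3 lipid genes, up to 6 of each lipid list and 2 of each other list by mean RPKM, and the 3 most like and 2 most opposite to each lipid gene, of which 1 is not reported here. No sequence of the genes was used here.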

Additional observations from a re-analysis of the deposited data

How the results depend on the processing

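The log2 fold changes of *ELOVL3* and *PNPLA3* stayed below 0 by more than their standard error in the 13 alternatives run, and that of *ELOVL6* in all but the one without both wild-type piglets with ST in the name, where its sign could not be told (-0.073, standard error 0.35). Leaving out 1 piglet at a time gave from -1.52 to -0.79 for *ELOVL3*, lowest in size without 6165ST, from -1.79 to -1.04 for *ELOVL6* and from -1.73 to -1.26 for *PNPLA3*. Without that pair it was -0.96 for *PNPLA3*, and with limma on log2(RPKM + 1) it was -0.93 for *PNPLA3*, where a pseudocount of 1 is above its CNV/CNV level. The number of transcripts past an adjusted p of 0.05 was 1 with all piglets in edgeR and 29 by DESeq2, 2 and 4 by limma with pseudocounts of 1 and 0.1, 3 without a filter, 2 with a term for the letters ST, 0 without both such wild-type piglets, and from 0 to 6 when 1 piglet was left out. For the list of lipid synthesis and handling the number was 2 by DESeq2 instead of 0, and for retinoid handling it was 1 without 6407, the wild-type piglet at the CNV/CNV level of that gene, *ALDH1A1*, which was chosen on this contrast, and 0 without any other piglet. The mean ratio of *ELOVL6* to *ELOVL3* was 1.39 in reads instead of 4.81 in RPKM in CNV/CNV piglets, by the lengths of the transcripts, and leaving out 1 piglet gave from 4.56 to 5.07, or from 3.31 to 7.23 in wild-type piglets, the lowest value being without 6161ST. No paired analysis was possible because no source used here matches single wild-type piglets to CNV/CNV piglets. The 37 to 164 reads of *PNPLA3* limit the precision of its levels.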
